A study of Mus musculus with 4 samples.

Results

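The actin cytoskeleton genes described here are 54 genes, of 23305 measured, that encode the actin monomers, the proteins that build and take apart actin filaments, the proteins that tie filaments to the membrane or regulate them, and the transcription factor Srf with its cofactor Mkl1. They were selected by gene function on account of 1 earlier result, a lower Actb value in Ets1-/- B cells, so the comparison of the genotypes in these genes is a description and not an independent test. All 54 symbols were present in the files, and all 54 reached a mean FPKM (a fragment count divided by transcript length and library size) of at least 1 in a genotype, so none was lost to the filter on low values. The RNA came from follicular B cells of mouse spleen that were sorted as CD23-high and CD21-low without the activation marker CD80 or class-switched immunoglobulin, with 2 libraries from WT mice (C57BL/6) and 2 from Ets1-/- mice (C57BL/6 x 129Sv), all females, of an age not given in the sources used here. Both groups were unstimulated. The Ets1-/- mice carried the mutation in every cell, and strain and genotype changed together, so a strain effect and an effect of Ets1 cannot be told apart in these libraries.

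Actin exists in cells as monomers and as filaments that grow mainly at one end. Profilin and thymosins hold monomers, the Arp2/3 complex starts branches, formins and Vasp proteins lengthen filaments, capping proteins stop them, and cofilin and gelsolin cut them. In B cells the cortical actin network limits the movement of the B cell receptor, and its rearrangement accompanies antigen binding, spreading and migration. Srf is a DNA-binding factor that recognizes the CArG box, and it works with either of 2 kinds of partner, the myocardin-related factors such as Mkl1, which are held back by free actin monomers, or the ternary complex factors Elk1, Elk3 and Elk4, which belong to the Ets family.

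All 9 B cell markers that were measured, of 11 listed, had a mean of at least 1 FPKM in both genotypes. Their summed level was 6934 and 6726 FPKM in WT replicates 1 and 2. It was lower, at 5655 and 6548 FPKM, in Ets1-/- replicates 1 and 2. The markers of neutrophils also differed between the genotypes. The 10 measured neutrophil genes summed to 117 and 97.2 FPKM in the WT libraries and to 2573 and 706 FPKM in Ets1-/- replicates 1 and 2, with 0 of the 10 at 0 in all libraries. Macrophage and monocyte markers summed to 38.9 to 75.3 FPKM in WT and 112 to 175 FPKM in Ets1-/- B cells, erythroid markers to 4.08 to 6.36 and 28.05 to 64.7 FPKM, and platelet markers, of actin-rich cell fragments, to 1.21 to 1.24 and 1.496 to 2.22 FPKM. Their part in the values of the actin genes was not tested. T cell markers summed to 88.1 to 112 FPKM and NK cell markers to 17.3 to 37.2, and both overlapped between the genotypes. Of 5 NK cell genes, 5 had a mean of at least 1 FPKM in WT and 2 in Ets1-/- B cells. Markers of stroma and endothelium summed to 68.6 to 92.9 and overlapped, with only Pecam1, 1 of 6 genes, at such a mean. Plasma cell markers summed to 168 and 189 FPKM in WT and 138 and 152 FPKM in Ets1-/- B cells. Dendritic cell markers summed to 5.34 and 4.58 FPKM in WT and 7.07 and 6.65 FPKM in Ets1-/- B cells. The part of these sums and of the B cell sum was not tested either. Ets1 itself had an FPKM of 231 and 275 in WT and of 229 and 229.8 in Ets1-/- B cells, a value over the whole gene that does not tell the genotypes apart. The files hold no read counts, so the depth behind each value is unknown. In sorted cells measured as bulk RNA, fewer cells of one type and less RNA per cell cannot be told apart.

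The promoters that hold a CArG box are shown first, since the question behind the list is whether the lower Actb value was shared with other actin genes and with Srf and its partners. RefSeq promoter windows, from 250 bases before to 50 bases after a transcription start in build GRCm38.p6, were available for 46 of the 54 genes. The genes without an entry were Actb, Twf2, Coro1b, Arpc5l, Lsp1, Rac1, Rac2 and Mkl1. A CArG box, written as CC, then 6 bases that are each A or T, then GG, which reads the same way on both strands, was found in the windows of 5 of the 46 genes (10.9%), compared with 121 of the 8032 tested genes that had a window (1.51%) and 1.81% of all genes that had one. The stretches around these boxes are given below 5′ to 3′ on the strand of the gene, with the box in capitals. Each full window matched the mm9 genome at a single place on its chromosome. The stretches lie at chr11:120209865-120209924 on the minus strand for Actg1, chr17:46693139-46693218 on the minus strand for Srf, chr14:21748370-21748427 on the plus strand for Vcl, chr10:127930081-127930140 on the minus strand for Myl6, and chr6:113327857-113327891 on the plus strand for Arpc4.
Actg1: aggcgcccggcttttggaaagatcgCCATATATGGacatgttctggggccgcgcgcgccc
Srf: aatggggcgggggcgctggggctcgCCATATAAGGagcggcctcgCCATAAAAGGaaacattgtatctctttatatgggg
Vcl: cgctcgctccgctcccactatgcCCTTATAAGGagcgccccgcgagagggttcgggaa
Myl6: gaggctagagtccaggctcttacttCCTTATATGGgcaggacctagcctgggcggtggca
Arpc4: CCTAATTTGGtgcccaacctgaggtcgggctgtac

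The boxes began 90 bases before the start in Actg1, 82 and 62 bases before it in Srf, 227 in Vcl, 50 in Myl6 and 250 in Arpc4, at the edge of the window. The Myl6 stretch lies inside the gene as annotated in GENCODE M1, chr10:127927916-127930931 (mm9, minus strand). Its box thus comes before a RefSeq start that is internal to that gene. Of these 5 genes only Vcl was without overlap between the genotypes. The differences of the others were within their standard errors and give no direction. On the log2(FPKM + 1) scale the difference of Ets1-/- minus WT was -0.08 for Actg1, -0.06 for Srf, -0.04 for Arpc4, 0.04 for Myl6 and 0.84 for Vcl. The 41 genes with a window but no box ranged from -0.74 to 0.41, with a median of -0.05. The letters CCGGAAG, a form of the motif bound by Ets factors, were searched on both strands and were in the windows of 17 of the 46 genes (37.0%) and of 22.2% of the tested genes with a window. The median difference was -0.06 in the 17 genes with these letters and -0.05 in the 29 genes without them. A match describes the sequence only and does not show binding.

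Of the 54 actin cytoskeleton genes, 0 passed the thresholds of the model over all genes, which were an absolute difference of at least 1 on the log2 scale and, in limma, a Benjamini-Hochberg adjusted p no higher than 0.05. Over all 10949 genes tested, 0.822% passed as lower and 0.877% as higher in Ets1-/- B cells. At an unadjusted p under 0.05, 3 of the 54 were lower, Actb, Gsn and Lcp1, against 6.95% of all genes, and 1 was higher, Vcl, against 6.39%. Since the genes were selected on this comparison, nothing is read from these counts. Both Ets1-/- values lay below both WT values in 16 of the 54 genes, where 22.2% of all genes tested did so, and above them in 8, where 19.4% of all genes did so. In the other 30 genes the genotypes overlapped. The median difference was -0.05 in the actin genes and -0.02 over all genes tested, and the median absolute difference was 0.18 and 0.16. An absolute difference of at least 0.5 was found for 3 actin genes, Actb, Gsn and Vcl, and for 13.5% of all genes tested. Besides Actb, 15 genes were thus lower without overlap, each by a smaller difference than that of Actb.

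**Figure D1:**
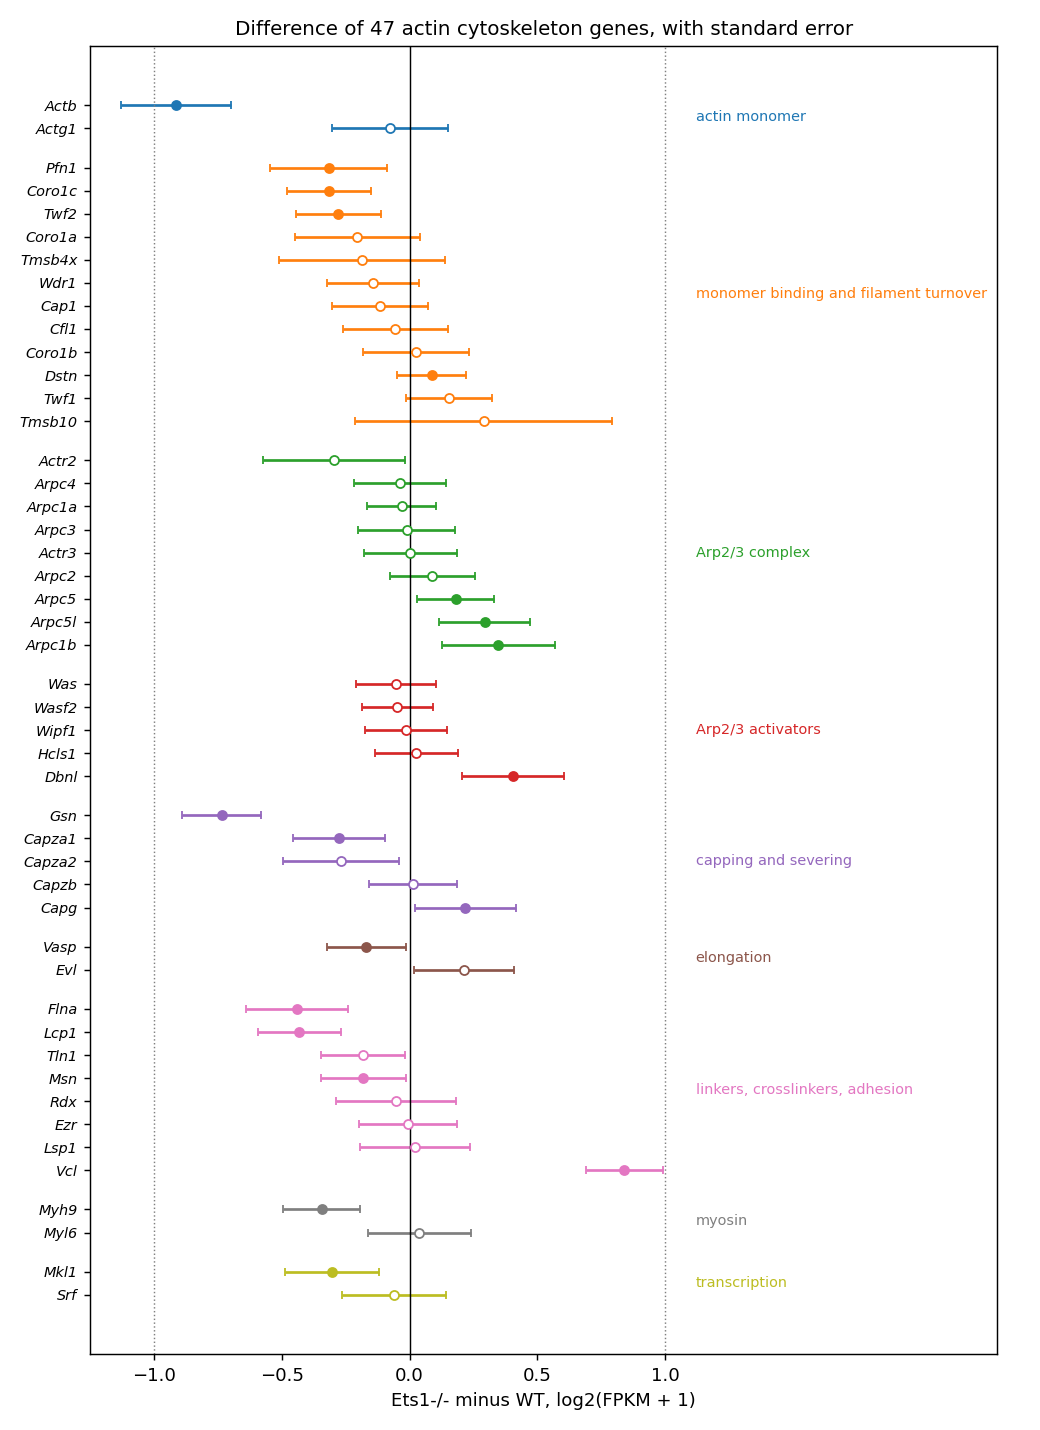
Difference of 47 of the 54 genes, Ets1-/- minus WT on the log2(FPKM + 1) scale (x axis), by role, with the standard error of the fit as bars over 2 libraries per genotype. Filled points are the 19 genes whose genotypes did not overlap and open points the 28 that overlapped, dotted lines mark a difference of 1 in either direction, and Actb (-0.91), Gsn (-0.74) and Vcl (0.84) lie farthest from 0.

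The actin monomers differed from one another. Actb, which encodes β-actin and lies at chr5:143664794-143668433 (mm9, minus strand), was measured at 1598 and 1519 FPKM in WT and at 754 and 906 FPKM in Ets1-/- B cells. Both Ets1-/- libraries were well below both WT libraries, and the means were 1558 ± 55.4 (SD, n = 2) and 829.8 ± 108 (SD, n = 2), so the WT mean was 1.88 times the Ets1-/- mean. The difference was -0.91 on the log2 scale with a standard error of 0.21, and -1.10 after quantile normalization. Actg1, which encodes γ-actin and lies at chr11:120207004-120209856 (mm9, minus strand), had an FPKM of 1066 and 952 in WT and of 843 and 1083 in Ets1-/- B cells. The lowest and the highest Actg1 values were both in Ets1-/- libraries, and its difference was -0.08 with a standard error of 0.23. Within each library, which removes any scaling between libraries, the FPKM of Actb divided by that of Actg1 was 1.5 and 1.6 in WT and 0.894 and 0.836 in Ets1-/- B cells. Actb was thus the more abundant actin in both WT libraries and Actg1 in both Ets1-/- libraries. The sum of both actins was 2663 and 2471 FPKM in WT and 1596 and 1989 FPKM in Ets1-/- B cells. The coding sequences of both genes were 88.7% identical over 1128 bases, with 62 identical bases as the longest run, and the encoded proteins of 375 residues were 98.9% identical. How the reads that fit both genes were shared out is not given in the sources used here.

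Among the most abundant transcripts few were as much lower as Actb. Its rank by FPKM among all 23305 genes was 97 and 107 in WT and 164 and 152 in Ets1-/- B cells, while that of Actg1 was 128 and 148 in WT and 160 and 138 in Ets1-/- B cells. Of 198 genes with a mean of at least 500 FPKM over the 4 libraries, 5 had a difference at or below that of Actb, namely Actb and the small RNA genes Rnu73b, Snord37, Snord42b and Snord55, which were named after their values were seen. The first 3 of these small RNA genes were listed at 0 in an Ets1-/- library and overlapped between the genotypes. In mean FPKM, Rnu73b and Snord42b were higher in Ets1-/- B cells, at 1.20 and 1.45 times the WT mean. Snord37 and Snord55 were at 0.90 and 0.61 times the WT mean. The median difference of the 198 genes was 0.30, above that of all genes tested, and 8 of them belong to the actin genes. Over all 10949 genes tested, 254 (2.32%) were at or below the difference of Actb. The lower Actb value is what prompted the list, so its place among these genes is a description and not a test.

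**Figure D2:**
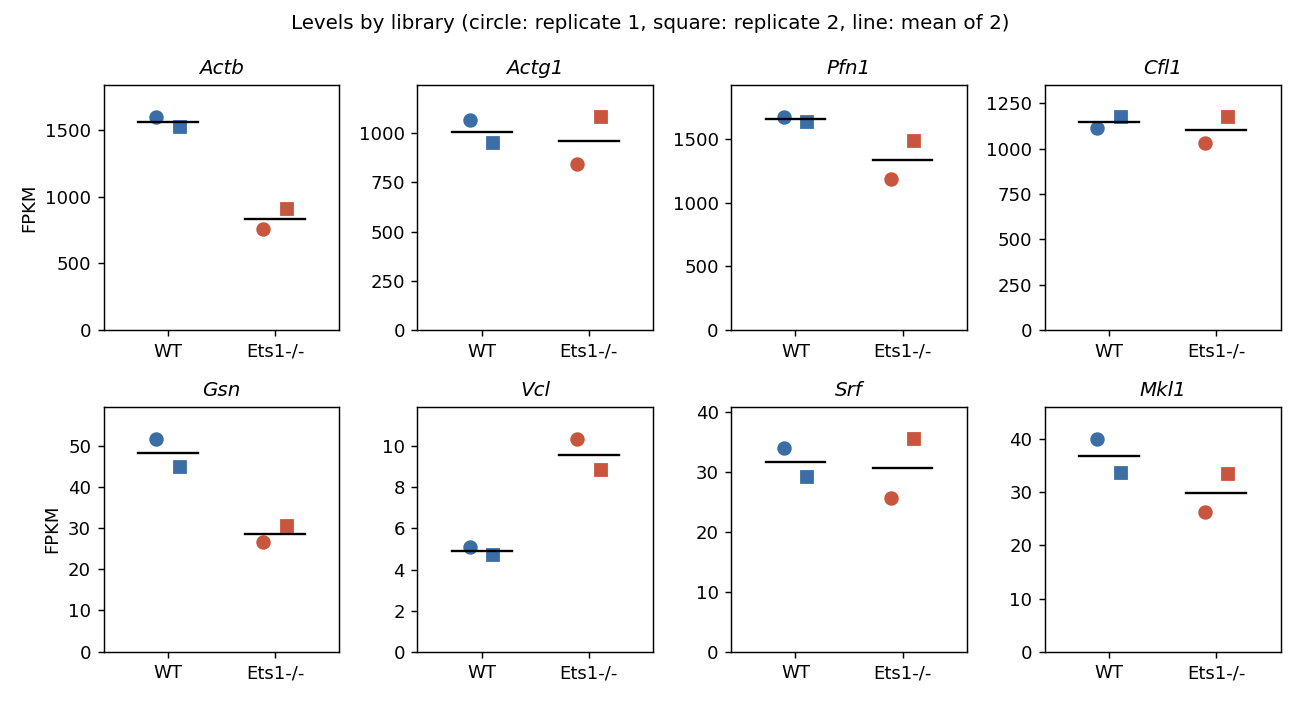
FPKM of 8 genes in each library (y axis from 0 in every panel), with WT in blue and Ets1-/- in red, replicate 1 as a circle, replicate 2 as a square, and the mean of both as a line. Actb and Gsn are lower in both Ets1-/- libraries, Vcl is higher in both, and Actg1, Cfl1 and Srf overlap.

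**Figure D3:**
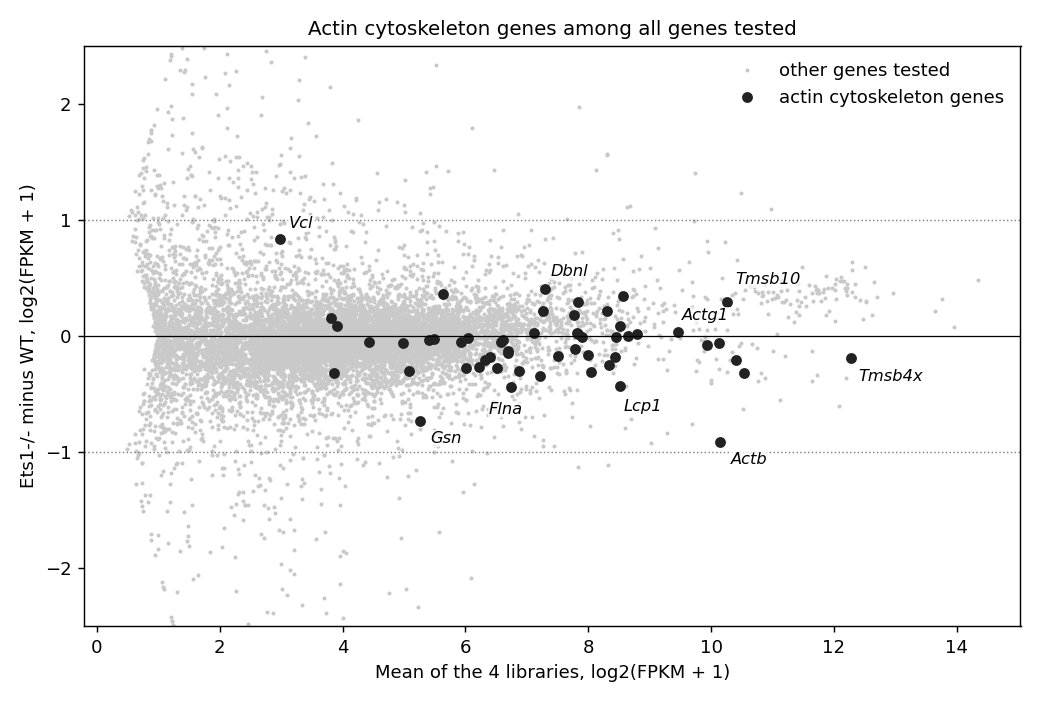
Mean of the 4 libraries on the log2(FPKM + 1) scale (x axis) against the difference of Ets1-/- minus WT on the same scale (y axis) for the 10949 genes tested, with the 54 actin genes in black and the others in grey. The y axis is limited to 2.5 in either direction, which leaves out 122 of the other genes, and Actb (-0.91) lies below the other actin genes and below most genes of like abundance, as the 198 genes with a mean of at least 500 FPKM had a median difference of 0.30.

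The genes that bind monomers or turn filaments over held some of the highest values of all. Of these 12 genes, 3 were lower without overlap, Pfn1, Coro1c and Twf2, 1 was higher, Dstn, and 8 overlapped, with a median difference of -0.13. Over all genes tested, 22.2% were lower and 19.4% higher without overlap. Profilin 1, encoded by Pfn1, loads monomers onto growing filament ends, and its FPKM was 1677 and 1639 in WT and 1190.3 and 1489 in Ets1-/- B cells. The difference of Pfn1 was the lowest of this group, -0.32 with a standard error of 0.23, and it was -0.50 after quantile normalization and -0.16 without Ets1-/- replicate 1. Cofilin 1, encoded by Cfl1, cuts filaments, and it was at 1114 and 1173 FPKM in WT and at 1031 and 1174 FPKM in Ets1-/- B cells, so the genotypes overlapped. The related Dstn, which encodes destrin, was far less abundant, at 13.7 and 13.3 FPKM in WT and 15.1 and 13.8 FPKM in Ets1-/- B cells, a difference of 0.09 with a standard error of 0.13. Coro1a, which encodes the coronin of blood cells, was at 1481 and 1436 FPKM in WT and at 1088 and 1472 FPKM in Ets1-/- B cells. Coro1c had an FPKM of 14.8 and 15.8 in WT and of 10.8 and 13.6 in Ets1-/- B cells, and Twf2, which encodes a twinfilin, of 71.5 and 69.2 in WT and of 51.7 and 64.6 in Ets1-/- B cells. In both genes the lower of the Ets1-/- libraries was replicate 1.

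The thymosins, small proteins of which Tmsb4x holds most of the monomer pool in many cells, varied with the library and not with the genotype. Tmsb4x had the highest level of all 54 genes, with an FPKM of 4478 and 6271 in WT and of 5215 and 4160 in Ets1-/- B cells. Tmsb10 was at 709.7 and 1710.3 FPKM in WT and at 1749 and 1038 FPKM in Ets1-/- B cells. WT replicate 2 and Ets1-/- replicate 1 were the high libraries for both thymosins. Tmsb10 had the highest difference of the group, 0.29 with a standard error of 0.50, and leaving out each library in turn moved it from -0.34 to 0.92. Without the thymosins the other 52 genes summed to 15011 and 15055 FPKM in WT and to 12449 and 14663 FPKM in Ets1-/- B cells.

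The Arp2/3 complex, which nucleates branches, had values on both sides of 0. Of its 9 genes 0 were lower in Ets1-/- B cells without overlap, 3 were higher (Arpc1b, Arpc5 and Arpc5l) and 6 overlapped, where 22.2% of all genes tested were lower and 19.4% higher, and the median difference was 0.00. The summed FPKM of the complex was 2027 and 2220 (WT) and 2206 and 2375 (Ets1-/-). Arpc1b, the form of the Arpc1 subunit that is prominent in blood cells, was at 344 and 328 FPKM in WT and at 362 and 505 FPKM in Ets1-/- B cells. Its difference of 0.35 had a standard error of 0.22, and it was 0.11 without Ets1-/- replicate 2. The other form, Arpc1a, was at 41.1 and 42.9 FPKM in WT and 39.2 and 42.9 FPKM in Ets1-/- B cells. Arpc5 had close replicates, at 199 and 207 FPKM in WT and 232 and 229 FPKM in Ets1-/- B cells, and its paralog Arpc5l was at 196 and 213 FPKM in WT and 227 and 277 FPKM in Ets1-/- B cells. The lowest difference of the complex was that of Actr2, which encodes Arp2, at -0.30 with a standard error of 0.28, from an FPKM of 119 and 140.4 in WT and of 136 and 81.4 in Ets1-/- B cells. Actr2 overlapped between the genotypes, and its difference was 0.07 without Ets1-/- replicate 2. Actr3, which encodes Arp3, was at 379 and 425 FPKM in WT and 432 and 374 FPKM in Ets1-/- B cells.

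The activators of the Arp2/3 complex differed little, with 4 of 5 genes overlapping and a median difference of -0.01. Without overlap, 0 of the 5 were lower and 1 was higher (22.2% and 19.4% of all genes tested). Was, which encodes the protein missing in Wiskott-Aldrich syndrome, had an FPKM of 96.6 and 96.4 in WT and of 85.3 and 101 in Ets1-/- B cells. Its difference of -0.05, with a standard error of 0.16, was the lowest of this group but was 0.07 without Ets1-/- replicate 1. Wasf2 (a WAVE protein), Wipf1 (the partner of the Was protein) and Hcls1 (the cortactin relative of blood cells) had differences between -0.05 and 0.03. Dbnl, which encodes a drebrin-like adaptor that binds filaments, was higher without overlap, at 138 and 135 FPKM in WT and 155 and 211 FPKM in Ets1-/- B cells. The difference of Dbnl was 0.41 with a standard error of 0.20, and 0.18 without Ets1-/- replicate 2.

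Gsn stood apart among the genes that cap or cut filaments. Gelsolin, encoded by Gsn at chr2:35111927-35163420 (mm9, plus strand), cuts filaments in response to calcium. Its FPKM was 51.7 and 45.0 in WT and 26.7 and 30.6 in Ets1-/- B cells, with means of 48.4 ± 4.79 (SD, n = 2) and 28.6 ± 2.77 (SD, n = 2). Both Ets1-/- libraries were below both WT libraries, the WT mean was 1.69 times the Ets1-/- mean, and the difference was -0.74 with a standard error of 0.15. The gelsolin relative Capg, which caps without cutting, was at 289 and 298 FPKM in WT and 299 and 390 FPKM in Ets1-/- B cells, a difference of 0.22 with a standard error of 0.20, and 0.03 without Ets1-/- replicate 2. Capza1, Capza2 and Capzb encode the subunits of the capping protein heterodimer. Capza1 was at 99.4 and 101 FPKM in WT and 94.1 and 72.2 FPKM in Ets1-/- B cells, while Capza2 and Capzb overlapped. Of the filament elongation factors, Vasp was at 183 and 204 FPKM in WT and 169.5 and 173 FPKM in Ets1-/- B cells, a difference of -0.17 with a standard error of 0.15, and -0.09 without WT replicate 2. Evl, a protein of the same family, was at 139 and 145 FPKM in WT and 142 and 191 FPKM in Ets1-/- B cells and overlapped.

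Vcl was higher in both Ets1-/- libraries. Vinculin, encoded by Vcl at chr14:21748655-21852895 (mm9, plus strand), links filaments to integrin adhesions. It had the lowest level of all 54 genes, with an FPKM of 5.09 and 4.72 in WT and of 10.4 and 8.83 in Ets1-/- B cells. The means were 4.91 ± 0.259 (SD, n = 2) and 9.60 ± 1.09 (SD, n = 2), an Ets1-/- mean 1.96 times the WT mean, and the difference was 0.84 with a standard error of 0.15. On the log2(FPKM + 1) scale the change of a gene this low is understated. Its partner talin 1, encoded by Tln1, was at 91.5 and 86.7 FPKM in WT and 70.6 and 87.0 FPKM in Ets1-/- B cells and overlapped.

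The crosslinkers Flna and Lcp1 were lower in both Ets1-/- libraries. Filamin A, encoded by Flna, crosslinks filaments into networks and was at 134 and 113 FPKM in WT and 79.0 and 104 FPKM in Ets1-/- B cells. Its difference of -0.44, with a standard error of 0.20, was the lowest among the 8 genes of linkers, crosslinkers and adhesion with all libraries, but was -0.25 without Ets1-/- replicate 1. L-plastin, encoded by Lcp1, bundles filaments in white blood cells, and its replicates were close, at 430.2 and 418 FPKM in WT and 309.8 and 319 FPKM in Ets1-/- B cells. The difference of Lcp1 was -0.43 with a standard error of 0.16, and stayed between -0.45 and -0.41 with any library left out. Msn, which encodes moesin, was at 367 and 366 FPKM in WT and 306 and 341 FPKM in Ets1-/- B cells. The other linkers of filaments to the membrane, Ezr and Rdx, and the filament-binding Lsp1 overlapped, with differences between -0.05 and 0.02. Of the myosin genes, Myh9, the heavy chain of nonmuscle myosin IIA, was at 171 and 161 FPKM in WT and 124 and 137 FPKM in Ets1-/- B cells, a difference of -0.34 with a standard error of 0.15. The light chain gene Myl6 was at 652 and 744 FPKM in WT and 662 and 772 FPKM in Ets1-/- B cells and overlapped, with a difference of 0.04.

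Srf overlapped between the genotypes and Mkl1 was lower without overlap. Srf, at chr17:46683788-46693111 (mm9, minus strand), had an FPKM of 33.9 and 29.2 in WT and of 25.6 and 35.5 in Ets1-/- B cells. Ets1-/- replicate 1 was the lowest and Ets1-/- replicate 2 the highest of the 4 libraries, and the difference was -0.06 with a standard error of 0.20. Mkl1, at chr15:80842711-81021187 (mm9, minus strand), had an FPKM of 40.1 and 33.7 in WT and of 26.2 and 33.4 in Ets1-/- B cells. The higher Ets1-/- value was just under the lower WT value, and the difference was -0.30 with a standard error of 0.18. With each library left out in turn, Srf moved from -0.29 to 0.17 and Mkl1 from -0.47 to -0.13.

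Of the other Srf cofactors, Elk3 fell past both thresholds of the model. Elk3, at chr10:92710159-92773880 (mm9, minus strand), encodes the ternary complex factor also called Net. It had an FPKM of 16.0 and 16.6 in WT and of 6.91 and 7.76 in Ets1-/- B cells, a WT mean 2.22 times the Ets1-/- mean. The log2 difference was -1.06 with a standard error of 0.14 (limma, Benjamini-Hochberg adjusted p = 0.0402), and both Ets1-/- libraries were below both WT libraries. Elk3 passed both thresholds in 5 of 12 alternative fits, over which its difference ranged from -1.15 to -0.98 and the adjusted p from 0.0149 to 0.343. It did not pass in any fit that left out a library, with 0.327 and 0.343 when WT replicate 1 or 2 was left out and 0.0944 and 0.0772 when Ets1-/- replicate 1 or 2 was. Mkl2, Elk1 and Elk4 overlapped between the genotypes, with differences of -0.12, 0.08 and 0.05, and Myocd, which encodes myocardin, was under 0.02 FPKM in all 4 libraries and was not tested.

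Genes known as Srf targets outside the 54 went in both directions. Of 21 such genes, 15 were tested, 0 passed both thresholds of limma, 1 was lower and 4 were higher at an unadjusted p under 0.05 (6.95% and 6.39% of all genes tested), and their median difference was 0.02. The highest differences were those of Fosb, Egr1, Fos and Egr2, immediate early genes that respond within minutes to stimulation. Junb, of the same kind, was also higher without overlap, with a difference of 0.73. Its FPKM was 654 and 898 in WT and 1064 and 1511 in Ets1-/- B cells. Ier2, Egr3 and Nr4a1, also of this kind, overlapped between the genotypes at 0.34, 0.02 and -0.07. Fosb was at 64.5 and 206 FPKM in WT and 577 and 360.2 FPKM in Ets1-/- B cells, and Fos at 687 and 1283 FPKM in WT and 2119.9 and 2307 FPKM in Ets1-/- B cells. The differences were 1.97 for Fosb, 1.57 for Egr1, 1.24 for Fos and 1.05 for Egr2, and the limma p-values, adjusted by the Benjamini-Hochberg method, lay between 0.133 and 0.288. The lowest was Zyx, which encodes zyxin of adhesions and stress fibres. Zyx was at 37.1 and 31.8 FPKM in WT and 14.1 and 17.1 FPKM in Ets1-/- B cells, a difference of -1.10 with a standard error of 0.17 (limma, Benjamini-Hochberg adjusted p = 0.0554).

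**Figure D4:**
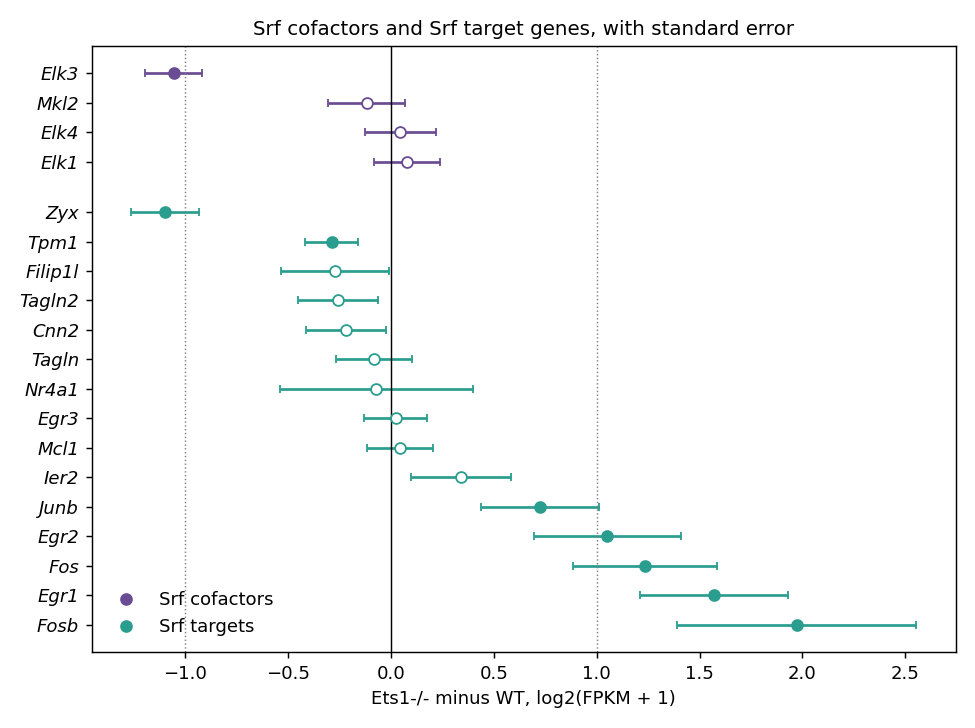
Difference of Ets1-/- minus WT on the log2(FPKM + 1) scale (x axis) for 4 Srf cofactors (purple) and 15 Srf target genes outside the 54 (green), with the standard error of the fit as bars over 2 libraries per genotype. Filled points are genes without overlap between the genotypes, dotted lines mark 1 in either direction, and Elk3 (-1.06) and Zyx (-1.10) lie at the low end while Fosb (1.97) lies at the high end.

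A wider list of 74 other actin genes (formins, tropomyosins, kinases and crosslinkers among them) had 54 genes that were tested. Of these, 1 passed both thresholds as lower and 0 as higher (0.822% and 0.877% of all genes tested), and 19 were lower and 10 higher without overlap (22.2% and 19.4% of all genes tested). The gene that passed was Marcks, whose product binds filaments and phospholipids at the membrane. Marcks was at 9.82 and 12.4 FPKM in WT and 3.39 and 2.73 FPKM in Ets1-/- B cells, a log2 difference of -1.57 with a standard error of 0.18 (limma, Benjamini-Hochberg adjusted p = 0.0282). It passed in 7 of 12 alternative fits, with adjusted p-values from 0.00593 to 0.146, and in none of the 4 that left out a library, where they were between 0.0911 and 0.146. Zyx, given above, and Inf2 also had differences below that of Actb, at -1.10 and -0.94. Inf2, named after its values were seen, was at 7.23 and 6.56 FPKM in WT and 2.80 and 3.47 FPKM in Ets1-/- B cells. The highest difference of the wider list was that of Rhob, 0.73 with a standard error of 0.39. The genes used beside Actb as qPCR references in the study, Gapdh and Hprt, had differences of 0.33 and -0.04. Gapdh had an FPKM of 224 and 243 in WT and 247 and 346 in Ets1-/- B cells. Hprt had an FPKM of 55.3 and 77.7 in WT and 71.4 and 57.3 in Ets1-/- B cells. Of 10 tested genes in common use as references, 0 were lower without overlap and 4 were higher, against 22.2% and 19.4% of all genes tested.

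The libraries set how far these directions can be read. The median absolute log2 gap between replicates of the 54 genes was 0.09 in WT and 0.30 in Ets1-/- B cells, compared with 0.13 and 0.26 over all genes tested. Ets1-/- replicate 2 was above replicate 1 in 40 of the 54 genes and in 54.2% of all genes tested. Without Ets1-/- replicate 2, 33 of the 54 genes lay below both WT libraries, and without Ets1-/- replicate 1, 22 did. The number above both WT libraries was 24 without Ets1-/- replicate 1 and 13 without Ets1-/- replicate 2, where it was 8 with all libraries. Without WT replicate 2, 15 genes lay above the remaining WT library in both Ets1-/- libraries. After quantile normalization 24 genes were lower and 6 higher without overlap, and 18 and 8 after upper-quartile scaling. The shares of all genes tested are not given for these settings, and leaving out a library makes overlap rarer for every gene. Nothing about the actin genes as a group is read from these counts. With each library left out in turn, Actb ranged from -1.05 to -0.78, Gsn from -0.84 to -0.64 and Vcl from 0.74 to 0.95.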

How the data were processed

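RNA-seq of sorted follicular B cells from 2 WT and 2 Ets1-/- mouse samples was analysed. Per the labels, the authors aligned reads with TopHat2 2.0.13 to mm9 and estimated expression with Cuffdiff. They deposited 1 FPKM value per gene symbol and library. The annotation and any scaling between libraries are not given in the sources used here. Replicates are biological by the study's methods. The p-values rest on the spread between these samples combined with a spread that limma estimates over all genes (2 residual and 3.1 prior degrees of freedom).

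Of 23309 entries per file, 4 with repeated symbols were left out. Log2(FPKM + 1) was fitted with limma 3.58.1 in R 4.3.3 (genotype only, eBayes with trend) over the 10949 genes whose mean FPKM reached 1 in one genotype or both, with Benjamini-Hochberg adjustment over all of them. No other test was made, since 2 against 2 samples cannot reach a p of 0.05 by permutation. Differences are Ets1-/- minus WT. Positions, exons and coding sequences come from GENCODE M1 (NCBIM37, mm9), and the most alike pair of isoforms was compared. Python 3.11.15 did the rest.

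The 54 genes and the other lists were chosen with earlier results of these data known. Values per library are given for the actins, Srf, Mkl1 and the lowest and highest difference in each of 9 role groups, and for further members chosen after their values were seen. A role group of 7 members counts in every total over the 54 genes but is not reported here on its own. Marker genes with no row under their symbol were not analysed here. Alternatives covered pseudocount, filters, scaling, the replicate block, robust variance and each library left out.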

Additional observations from a re-analysis of the deposited data

How the results depend on the processing

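With 2 libraries per genotype and no read counts, small differences of single genes are not resolved. None of the 54 actin genes passed both thresholds as reported or in any alternative run. The difference of Actb was -1.10 after quantile normalization and -0.91 as reported, and lay between -1.05 and -0.78 when single libraries were left out. The median of the 54 genes ranged from -0.14 to 0.02 over the libraries left out, so its sign is not settled. The number of genes lower without overlap ranged from 20 to 33, and of genes higher from 8 to 24, when a library was left out, where 1 value in place of 2 makes overlap rarer by construction. Of 228 values of 19 other members under alternatives, 4 moved by 1 SD between replicates or more. This count is no measure of robustness, since leaving out 1 of 2 libraries cannot move a difference by more than that SD. The filters, the replicate block and robust variance estimation leave a difference unchanged by construction. Over all genes tested, 186 passed both thresholds, 106 with a minimum mean of 5 FPKM, 75 with no filter on low values, 305 with robust variance estimation, and 99 to 116 with a library left out. The 4 libraries share only replicate numbers across genotypes, and same-numbered libraries deviated in opposite directions (correlation across genes -0.21). A replicate block gave 266 genes past both thresholds. Blocking on crossed pairs, an alternative added after the data were seen, gave 409. The cause of these changes was not tested.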

Other observations

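The tubulins, which build microtubules and not actin filaments, were listed beside the actin genes. Of 11 tubulin genes tested, 1 passed both thresholds of limma as higher and 0 as lower (0.877% and 0.822% of all genes tested). Without overlap, 3 were higher and 2 lower (19.4% and 22.2% of all genes tested), and the median difference was 0.10. Tubb2b, a β-tubulin gene, was at 3.61 and 3.52 FPKM in WT and 17.5 and 23.0 FPKM in Ets1-/- B cells, an Ets1-/- mean 5.67 times the WT mean. Its log2 difference of 2.21 had a standard error of 0.18 (limma, Benjamini-Hochberg adjusted p = 0.0106), and in 12 alternative fits the adjusted p ranged from 0.00114 to 0.0547, past the threshold in 10 of them. The fits without WT replicate 1 and without WT replicate 2 gave 0.0547 and 0.0541. The family member Tubb2a was at 2.54 and 4.12 FPKM in WT and 8.71 and 10.01 FPKM in Ets1-/- B cells, a difference of 1.28 (limma, Benjamini-Hochberg adjusted p = 0.0717). Tubb2a and Tubb2b are close paralogs, so their values are uncertain, and how their shared reads were counted is not given in the sources used here. Tubg2, of the γ-tubulins, had the lowest difference of the list, -0.71 with a standard error of 0.23. The widely expressed Tubb5 and Tuba1b had differences of 0.01 and 0.10.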
